A study of Mus musculus with 6 samples.

Results

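The 35 genes described here are sinusoidal, vascular and lymphatic endothelial genes of the liver. They are a fixed list of names with no threshold on a measured value, chosen with earlier results of these data known, and all 35 were found among the 27179 genes of each count file (Eltd1 under its current symbol Adgrl4). RNA-seq counts came from 6 livers of C57BL/6 mice, 3 of wild-type genotype and 3 that were Mettl3-deficient. Mettl3 encodes the enzyme that methylates adenosine in RNA at its N6 position. The sources used here give neither the age and sex of the animals nor how Mettl3 was made deficient, so which cell types lost it is not known. RNA was taken from whole frozen liver, and in such bulk samples fewer endothelial cells and less RNA per endothelial cell cannot be told apart. The labels give each library as a liver with a replicate number and identify no animal, and the p-values rest on the spread over these 6 libraries.

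Endothelial cells line the blood vessels of the liver. Most of them form the sinusoids, where they lack a continuous basement membrane, carry open pores and take up waste molecules from the blood through scavenger receptors. They depend on vascular endothelial growth factor (VEGF) made largely by hepatocytes, and they send BMP and Wnt signals back to hepatocytes. Cells of larger vessels are closed by tight junctions and carry more of the general vascular adhesion proteins.

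The libraries held from 31960205 to 36025772 counts. The 35 genes together took 15640 to 28733 counts of a library, and single members had from 34 counts (Fli1) to 2650 counts (Eng). Levels are given in CPM (counts scaled to the size of the library and by edgeR's TMM factors), and a fold change sets the Mettl3-deficient livers against the wild-type ones. Calls rest on edgeR's quasi-likelihood test over 14380 genes, with 0.05 as the limit for the Benjamini-Hochberg adjusted p. Mettl3 itself held 13.4, 14.3 and 12.1 CPM in the wild-type livers and 5.96, 6.60 and 4.94 CPM in the Mettl3-deficient livers. Y-linked transcripts had counts in 3 libraries (Mettl3-deficient replicates 1 and 2, wild type replicate 1) and 0 counts in the rest.

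Most endothelial genes did not pass the test between the genotypes. Of 35 members, all 35 passed the filter on low counts, 4 fell and 0 rose. Those that fell were Lyve1, Ptprb, Robo4 and Erg, and all 4 lost their call, though not their sign, when counts were scaled by library size alone. The share of members that fell, 11.4%, was close to the 10.5% of all tested genes that fell. Higher calls made up 13.3% of all tested genes, and calls in either direction 23.8%. No member rose at an unadjusted edgeR p under 0.05 either, and 6 of 35 had lower values at that level. Of all 14380 tested genes, 2992 were higher and 2662 lower at that level. DESeq2 and limma-voom also gave 0 higher members. The median log2 fold change of the members was -0.20, beside 0.01 over all tested genes, but with library size alone it was 0.29, beside 0.49. It was -0.34 without wild type replicate 1, -0.07 without either of the other wild-type livers, -0.12 without Mettl3-deficient replicate 2 and -0.09 with a covariate for Y-linked counts. That scaling called 0 members lower and 3 higher (Icam2, Egfl7 and Bmp2), against 4.14% and 33.4% of all tested genes. In 7 members (20%) every Mettl3-deficient library lay below every wild-type library, against 21.9% of all tested genes, and in 2 members (5.71%) every one lay above, against 23.9%.

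The summed level of the 35 genes was 555 CPM in wild type replicate 1, 787 CPM in replicate 2 and 869 CPM in replicate 3. In the Mettl3-deficient livers the sums were 604, 636 and 622 CPM, which lie within the range of the wild-type livers. They lie above wild type replicate 1 and below wild type replicates 2 and 3. With library size alone the sums were 489, 649 and 730 CPM in the wild-type livers and 704, 798 and 696 CPM in the Mettl3-deficient livers, and the groups again overlapped.

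Wild type replicate 1 stood apart from the other wild-type livers, in these genes and over all genes. The chi-square per degree of freedom of its counts was 287.5 against replicate 2 and 281.6 against replicate 3, and 16.2 between those. Mettl3-deficient livers also differed widely, with 121.8 (replicates 1 and 2), 85.05 (1 and 3) and 230.7 (2 and 3). Wild type replicate 1 is the only wild-type library with Y-linked counts. It had the lowest of the 3 wild-type values in 29 of 35 members (82.9%), against 41.2% of all tested genes. Of 10 other sinusoidal genes 9 were lowest in it among wild-type livers. All 12 Kupffer cell markers were also lowest in it, with a summed level of 155 CPM against 478 and 553 CPM in the other wild-type livers. Without wild type replicate 1, 7 members fell, adding Oit3, Ehd3 and Clec4g to the 4 named above, and 10.7% of all tested genes fell. When another single library was left out, from 0 to 2 members fell. The share of all tested genes that fell was not counted in those fits, so whether calls were lost in general is not shown. The part that wild type replicate 1 plays in the results was not tested beyond these values.

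**Figure D1:**
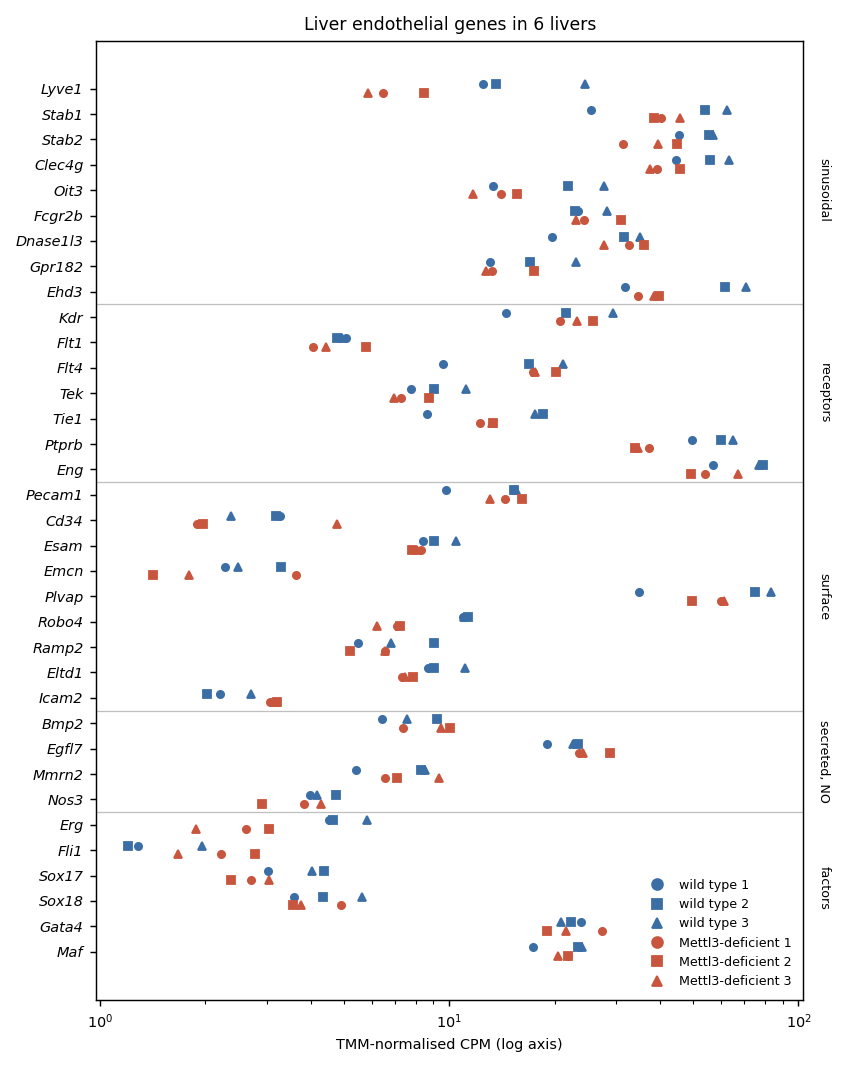
Level of each of the 35 endothelial genes in each liver (TMM-normalised CPM, log axis), with the members grouped by role; each point is 1 library, with wild type in blue and Mettl3-deficient in red. The groups are apart for Lyve1, Ptprb, Robo4 and Erg, and the blue circles of wild type replicate 1 lie to the left of the other wild-type points for most genes.

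Levels can be compared between genes only per length, here as CPM per kilobase of exon. On that scale the wild-type livers held most of Plvap (32.5), Clec4g (22.2) and Eng (17.6), and the Mettl3-deficient livers held most of the same genes in the same order (28.6, 16.6 and 14.0). Plvap encodes the protein of the diaphragms of endothelial pores, Clec4g a lectin of sinusoidal cells and Eng the co-receptor endoglin. The lowest levels in both genotypes were those of Flt1 (0.364 and 0.353) and Cd34 (0.403 and 0.394). Lyve1 moved from the 8th place in wild-type livers to the 20th, from 5.77 to 2.37 per kilobase. These orders are descriptions, and no test was run between neighbours in them.

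Among the uptake receptors and other proteins of the sinusoid, 1 of 9 fell (11.1%, against 10.5% of all tested genes). Their median log2 fold change was -0.42 (0.07 with library size alone). Lyve1, a hyaluronan receptor of sinusoidal and lymphatic endothelium (Entrez 114332, chromosome 7, 110850607 to 110862953, GRCm38), held 12.5, 13.6 and 24.4 CPM in the wild-type livers and 6.45, 8.46 and 5.83 CPM in the Mettl3-deficient livers. The groups did not overlap, and wild type replicate 3 was the highest by far. Lyve1 fell 2.44-fold (log2 fold change -1.28 ± 0.30 SE, edgeR adjusted p = 0.0207). Leaving out either wild type replicate 3 or the first Mettl3-deficient library ended the call.

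Stab1 and Stab2 encode stabilins, scavenger receptors that clear hyaluronan and modified proteins. Stab2 held 45.4, 55.6 and 56.9 CPM in wild-type livers and 31.4, 44.8 and 39.7 CPM in Mettl3-deficient livers. These groups were apart by less than 1 CPM, and the log2 fold change of -0.45 ± 0.18 (SE) was not called (edgeR adjusted p = 0.103). Stab1 held 25.4, 53.9 and 62.5 CPM against 40.4, 38.5 and 45.9 CPM. All Mettl3-deficient values of Stab1 fell between wild type replicate 1 and the other wild-type livers. Macrophages also express Stab1 and Lyve1. Reads of Stab1 and its overlapping neighbour Nt5dc2 cannot be told apart where strand was not used in counting.

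Clec4g had 54.6 ± 9.30 CPM in wild-type and 40.9 ± 4.30 CPM in Mettl3-deficient livers (SD, n = 3). Its log2 fold change was -0.42 ± 0.17 (SE; edgeR adjusted p = 0.112). Ehd3, a membrane trafficking protein, held 31.9, 61.5 and 70.9 CPM in wild-type livers and 34.7, 39.8 and 38.5 CPM in Mettl3-deficient livers. Only wild type replicate 1 kept the groups of Ehd3 from being apart. Oit3, a zona pellucida domain protein of liver endothelium, had 20.9 ± 7.22 and 13.8 ± 1.97 CPM (log2 fold change -0.60 ± 0.27 SE, edgeR adjusted p = 0.134). Without wild type replicate 1 the edgeR adjusted p of Clec4g, Ehd3 and Oit3 was 0.0383, 0.0105 and 0.0223.

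The remaining sinusoidal genes were not called either. Fcgr2b, the inhibitory IgG receptor that takes up immune complexes, had 24.8 ± 2.98 CPM in wild-type and 26.1 ± 4.24 CPM in Mettl3-deficient livers (SD, n = 3). Dnase1l3, a secreted DNase, had 28.8 ± 8.08 and 32.2 ± 4.19 CPM. Gpr182, a scavenger receptor for chemokines, had 17.7 ± 5.02 and 14.5 ± 2.58 CPM. Their edgeR adjusted p were 0.786, 0.634 and 0.403.

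**Figure D2:**
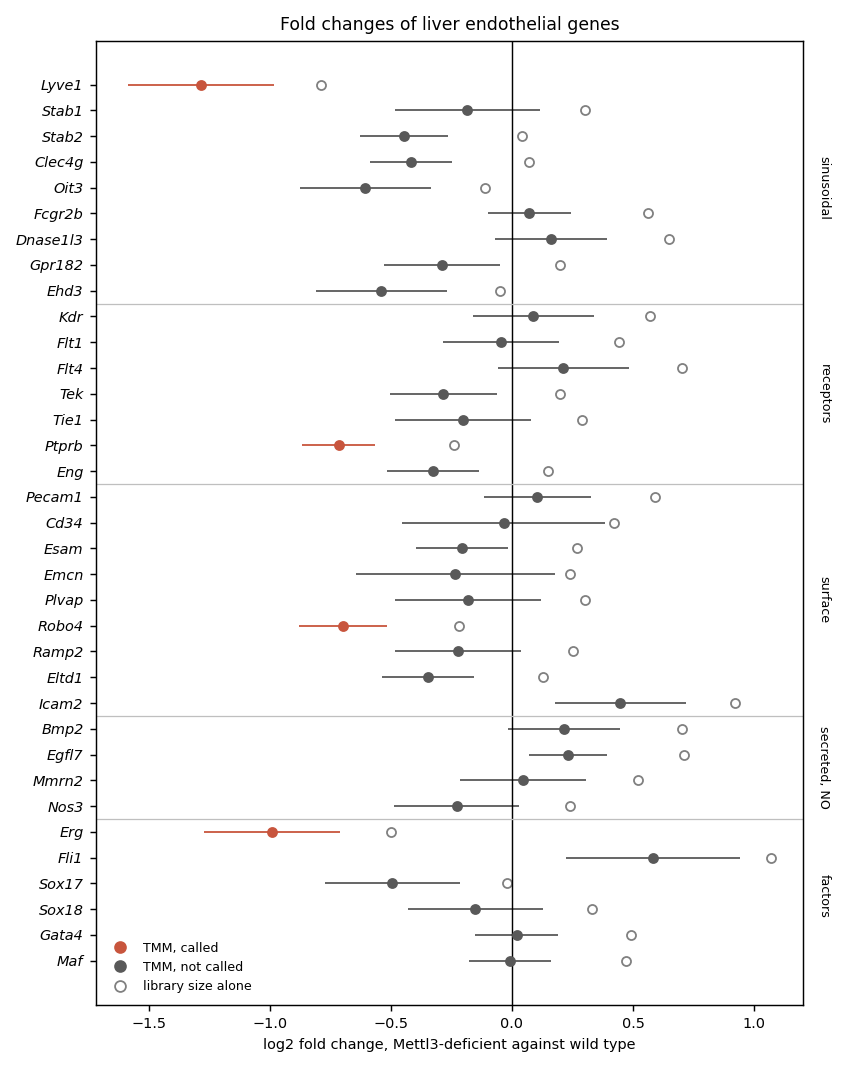
Log2 fold change of each endothelial gene, Mettl3-deficient against wild type, with the standard error as a bar (filled points, TMM scaling; red where called) and the value with library size alone (open points, no error drawn). The 4 called genes lie at or below -0.70, and scaling by library size alone moved every gene to the right, which put 17 members on the other side of 0.

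The receptors showed 1 lower call among 7 (14.3%, against 10.5% of all tested genes). Ptprb encodes VE-PTP, a receptor phosphatase of endothelium that dephosphorylates the angiopoietin receptor TIE2 (Entrez 19263, chromosome 10, 116275502 to 116389538). It held 49.4, 59.9 and 64.8 CPM in the wild-type livers and 37.2, 34.1 and 34.8 CPM in the Mettl3-deficient livers. All Mettl3-deficient values lay below the lowest wild-type value. Ptprb fell 1.64-fold (log2 fold change -0.72 ± 0.15 SE, edgeR adjusted p = 0.0157), a call lost without Mettl3-deficient replicate 1 or without either of wild type replicates 2 and 3, with the highest adjusted p at 0.0621.

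The 3 VEGF receptor genes had log2 fold changes near 0. Kdr, the main signalling receptor for VEGF-A, held 14.5, 21.6 and 29.4 CPM in wild-type livers and 20.7, 25.7 and 23.1 CPM in Mettl3-deficient livers. The Mettl3-deficient values of Kdr lay inside the wild-type range. Its log2 fold change was 0.09 ± 0.25 (SE), that of the decoy-like receptor gene Flt1 -0.04 ± 0.24 and that of the VEGF-C receptor gene Flt4 0.21 ± 0.27. Without wild type replicate 1 the values of Kdr and Flt4 were -0.14 and -0.05. Flt1 with library size alone was at 0.44.

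Tek, which encodes TIE2, had 9.32 ± 1.69 CPM in wild-type and 7.65 ± 0.960 CPM in Mettl3-deficient livers (SD, n = 3; edgeR adjusted p = 0.367). Its relative Tie1 had 14.9 ± 5.46 and 13.0 ± 0.5999 CPM. Eng, which binds BMP9 and BMP10 together with ALK1, had 71.2 ± 12.4 and 56.8 ± 9.30 CPM (edgeR adjusted p = 0.235). Log2 fold changes of the 3 genes were -0.28, -0.20 and -0.33 with TMM, but 0.20, 0.29 and 0.15 when only library size was used.

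Of 9 surface and junction genes 1 fell (11.1%, against 10.5% of all tested genes). Robo4, a guidance receptor that stabilises the vessel wall (Entrez 74144, chromosome 9, 37401902 to 37414023), held 10.9, 11.3 and 11.0 CPM in the wild-type livers and 7.08, 7.22 and 6.21 CPM in the Mettl3-deficient livers. Its libraries varied little within each genotype, and wild type replicate 1 did not differ here from the other wild-type livers. Robo4 fell 1.62-fold (log2 fold change -0.70 ± 0.18 SE, edgeR adjusted p = 0.0291). The call held when wild type replicate 1 was left out and was lost when any other single library was, with the highest adjusted p at 0.0960.

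The broad vascular markers were not called. Pecam1 (CD31), an adhesion protein of all endothelium, held 9.80, 15.3 and 15.6 CPM in wild-type and 14.5, 16.2 and 13.1 CPM in Mettl3-deficient livers, and the groups overlapped. Cd34 and Plvap are used as markers of sinusoids that take on a capillary character. Cd34 had 2.94 ± 0.498 CPM in wild-type and 2.87 ± 1.64 CPM in Mettl3-deficient livers (SD, n = 3), with Mettl3-deficient replicate 3 at 4.76 CPM above all other libraries. Plvap held 34.9, 75.2 and 83.5 CPM against 59.9, 49.6 and 61.1 CPM, again with the Mettl3-deficient values between wild type replicate 1 and the rest. Emcn, a sialomucin of veins and capillaries, had 2.68 ± 0.537 and 2.28 ± 1.18 CPM. Their edgeR adjusted p were 0.748 for Pecam1, 0.960 for Cd34, 0.685 for Plvap and 0.702 for Emcn.

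The adhesion genes Esam and Icam2 and the orphan adhesion receptor gene Eltd1 had small log2 fold changes. Eltd1 held 8.67, 9.05 and 11.1 CPM in wild-type and 7.32, 7.84 and 7.47 CPM in Mettl3-deficient livers. Esam, a junction protein, had 9.30 ± 1.06 and 8.06 ± 0.261 CPM. The groups of both were apart, without a call (edgeR adjusted p = 0.221 and 0.446). Icam2 lay the other way, with 2.20, 2.02 and 2.70 CPM against 3.05, 3.21 and 3.17 CPM, and was called as higher only with library size alone (edgeR adjusted p = 0.251 with TMM and 0.0340 there). Ramp2, the partner of the adrenomedullin receptor, had 7.11 ± 1.81 and 6.09 ± 0.787 CPM (SD, n = 3).

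Secreted factors and nitric oxide synthase had no call. Bmp2, which sinusoidal cells send to hepatocytes to drive hepcidin, held 6.43, 9.19 and 7.54 CPM in wild-type and 7.37, 10.03 and 9.47 CPM in Mettl3-deficient livers. Egfl7, a secreted vascular protein whose gene hosts miR-126, held 19.1, 23.4 and 22.7 CPM against 23.5, 28.8 and 24.1 CPM, with no overlap. Their log2 fold changes were 0.21 ± 0.23 and 0.23 ± 0.16 (SE; edgeR adjusted p = 0.515 and 0.310), and both were called as higher with library size alone (0.70 and 0.71, edgeR adjusted p = 0.0484 and 0.0161). Mmrn2, a matrix protein that binds VEGF, had a log2 fold change of 0.05 ± 0.26, and Nos3, the endothelial nitric oxide synthase, one of -0.23 ± 0.26 (0.24 with library size alone).

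Of 6 transcription factors 1 fell (16.7%, against 10.5% of all tested genes). Erg, an ETS factor that maintains endothelial identity (Entrez 13876, chromosome 16, 95359169 to 95586600), held 4.51, 4.63 and 5.80 CPM in the wild-type livers and 2.61, 3.03 and 1.87 CPM in the Mettl3-deficient livers. The groups did not overlap. Erg fell 1.99-fold (log2 fold change -0.99 ± 0.28 SE, edgeR adjusted p = 0.0404). This was the least stable of the 4 calls, made in 7 of the 16 alternatives. Among those that ended it were leaving out any single library other than wild type replicate 1 (adjusted p up to 0.131), a covariate for Y-linked counts and no filter on low counts.

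Fli1, the closest relative of Erg and also a gene of blood cells, had 1.48 ± 0.417 CPM in wild-type and 2.22 ± 0.548 CPM in Mettl3-deficient livers (SD, n = 3). Its log2 fold change of 0.58 ± 0.36 (SE) was not called (edgeR adjusted p = 0.265). The SOX factors of vessels, Sox17 and Sox18, had log2 fold changes of -0.49 ± 0.28 and -0.15 ± 0.28 (edgeR adjusted p = 0.219 and 0.715), and Sox18 was at 0.33 with library size alone. Gata4, which drives the sinusoidal program and is also made by stellate cells, had 22.3 ± 1.47 and 22.6 ± 4.25 CPM. Maf, a factor of sinusoidal cells and macrophages, had 21.5 ± 3.67 and 21.4 ± 0.797 CPM. The log2 fold changes of Gata4 and Maf were 0.02 ± 0.17 and -0.01 ± 0.17 with TMM factors, where the genotypes overlapped, while scaling by library size gave 0.49 and 0.47.

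The promoter windows of Robo4 and Erg are shown because these genes fell and Erg binds an ETS motif, and those of Clec4g and Tie1 as members that were not called and hold more ETS matches. Each window runs from 250 bases before to 50 after an annotated start, 5′ to 3′ on the gene's strand, from RefSeq on GRCm38.p6. They lie at chr9:37401722-37402021 (plus strand) for Robo4, chr16:95459299-95459598 (minus strand) for 1 of 3 Erg windows, chr8:3720602-3720901 (minus strand) for Clec4g and chr4:118489800-118490099 (minus strand) for Tie1. Capitals mark the ETS core AGGAAG and the GATA motif AGATAA on either strand.
Robo4: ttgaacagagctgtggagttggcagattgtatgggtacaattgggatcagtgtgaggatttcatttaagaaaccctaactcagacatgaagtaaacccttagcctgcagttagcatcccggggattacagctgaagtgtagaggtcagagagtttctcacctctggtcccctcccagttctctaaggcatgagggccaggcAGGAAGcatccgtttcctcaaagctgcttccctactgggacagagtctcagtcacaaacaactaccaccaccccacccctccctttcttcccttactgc
Erg: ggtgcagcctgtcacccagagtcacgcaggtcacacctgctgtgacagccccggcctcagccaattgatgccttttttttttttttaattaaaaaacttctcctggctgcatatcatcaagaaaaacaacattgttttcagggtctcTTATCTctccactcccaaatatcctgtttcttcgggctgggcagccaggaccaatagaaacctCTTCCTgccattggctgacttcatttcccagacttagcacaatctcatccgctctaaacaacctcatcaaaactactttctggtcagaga
Clec4g: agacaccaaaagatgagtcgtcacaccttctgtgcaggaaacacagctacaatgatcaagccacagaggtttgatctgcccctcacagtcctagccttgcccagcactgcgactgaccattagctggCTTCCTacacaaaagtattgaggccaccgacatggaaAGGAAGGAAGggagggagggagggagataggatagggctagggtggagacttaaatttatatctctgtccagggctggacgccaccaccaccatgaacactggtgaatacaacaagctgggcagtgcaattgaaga
Tie1: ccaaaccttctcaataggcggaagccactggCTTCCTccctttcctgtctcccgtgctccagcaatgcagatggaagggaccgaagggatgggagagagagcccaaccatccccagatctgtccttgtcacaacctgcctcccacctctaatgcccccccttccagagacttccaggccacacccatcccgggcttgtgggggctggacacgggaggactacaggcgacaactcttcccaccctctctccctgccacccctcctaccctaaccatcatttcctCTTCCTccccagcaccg
Robo4 holds 1 ETS match, this Erg window 1 ETS and 1 GATA match, Clec4g 3 ETS matches and Tie1 2. The other two Erg windows hold neither motif, and the windows of Kdr, Flt4, Fcgr2b and Tek, which were not called, hold no ETS match. Windows were available for 17 of the 35 members, 21 in total, and for neither Lyve1 nor Ptprb. Of the 21 windows 14 (66.7%) hold AGGAAG or its reverse complement, against 35.4% of all 32851 windows. The GATA motif is in 2 of the 21 windows (9.52%), against 11.2% of all. A match is a description of letters, not evidence of binding.

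Beyond the 35 members, 100 genes of related endothelial pathways were listed, and 93 passed the filter. Of these 8 rose (8.60%) and 7 fell (7.53%), both below the shares over all tested genes. With library size alone 26 rose and 2 fell. The text names every gene of these lists that was called.

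Ligands of the endothelial receptors changed in both directions. Vegfa, the main endothelial growth factor, held 240.7, 234.9 and 239.7 CPM in wild-type livers and 119.95, 116.6 and 95.9 CPM in Mettl3-deficient livers. The wild-type values were within a few percent of each other, and the groups were far apart. Vegfa fell 2.15-fold (log2 fold change -1.11 ± 0.18 SE, edgeR adjusted p = 0.00708) and was called in each of the 16 alternatives. Hepatocyte markers moved with it, and 3 of 8 fell (37.5%, against 10.5% of all tested genes). Those called were Serpina1c, Alb and Hnf4a, the first a member of a family of near-identical genes. The 8 markers had a summed level of 140470 to 176770 CPM in wild-type and 46135 to 75434 CPM in Mettl3-deficient livers. Their part in the change of Vegfa was not tested.

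Vegfc, a ligand of the lymphatic receptor encoded by Flt4, held 3.27, 5.09 and 2.74 CPM in wild-type and 8.39, 7.77 and 6.94 CPM in Mettl3-deficient livers. It rose 2.08-fold (edgeR adjusted p = 0.0336), a call lost with the Y-linked covariate and on leaving out any library except the second wild-type and the third Mettl3-deficient one. Angpt2, which can block TIE2 signalling, held 0.781, 0.460 and 0.924 CPM against 3.80, 9.10 and 1.42 CPM. The Mettl3-deficient livers differed widely among themselves. Angpt2 rose 6.60-fold (edgeR adjusted p = 0.0256), but was called in 8 of the 16 alternatives. It was not called by limma-voom, with the Y-linked covariate or without any single library other than Mettl3-deficient replicate 3. Angpt2 lies within the span of Mcph1, so their reads cannot be told apart where they overlap and strand was not used. Among the other tested ligands and co-receptors (Vegfb, Vegfd, Angpt1, Nrp1 and Nrp2) none was called.

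In the BMP list 3 of 10 genes fell (30%), against 10.5% of all tested genes. Bmpr2, a type II receptor for BMPs, held 5.43, 3.75 and 4.81 CPM in wild-type and 1.91, 2.15 and 1.98 CPM in Mettl3-deficient livers, 2.31-fold lower (edgeR adjusted p = 0.0179). Leaving out either wild type replicate 3 or the first Mettl3-deficient library ended the call. Id2 and Id3, target genes of BMP signalling that are not limited to endothelium, fell 1.88-fold and 1.86-fold (edgeR adjusted p = 0.00870 and 0.0120). Id2 had 159 ± 11.0 CPM in wild-type and 84.5 ± 5.36 CPM in Mettl3-deficient livers, and Id3 had 83.2 ± 3.97 and 44.7 ± 8.61 CPM (SD, n = 3). Each of these 3 calls was lost with library size alone, where the log2 fold changes were -0.74, -0.43 and -0.41. Of the 10 genes of the list 6 had TMM log2 fold changes below 0 and 4 above. Id1 (0.34), Smad7 (0.19) and Smad6 (-0.74) were not called (edgeR adjusted p = 0.483, 0.636 and 0.0544).

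Other signals of the sinusoid went both ways. Cxcl12, a chemokine of stellate and endothelial cells, fell from 396, 533 and 478 CPM in wild-type livers to 165, 80.5 and 187 CPM in Mettl3-deficient livers, 3.25-fold (edgeR adjusted p = 0.0125). It was called in each of the 16 alternatives. Rspo3, a Wnt enhancer of central vein endothelium, rose from 5.47, 4.28 and 4.47 CPM to 8.69, 7.88 and 10.6 CPM, 1.91-fold (edgeR adjusted p = 0.0239). It was not called on leaving out any library except the first wild-type and the second Mettl3-deficient one. Thbd, which encodes the thrombin receptor thrombomodulin, held 2.17, 3.32 and 3.03 CPM in wild-type and 6.13, 7.28 and 4.97 CPM in Mettl3-deficient livers, and rose 2.16-fold (edgeR adjusted p = 0.0273). Of the 6 fits that left out a library, its call held in those without the first wild-type or the third Mettl3-deficient one.

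Among Notch genes and further transcription factors, Hes1 and Ets2 were called. Ets2, an ETS factor found in many cell types, held 20.7, 35.1 and 32.6 CPM in wild-type and 99.6, 135 and 61.0 CPM in Mettl3-deficient livers. It rose 3.34-fold (edgeR adjusted p = 0.0102) and was called in each alternative. Hes1, a Notch target, rose 1.51-fold (edgeR adjusted p = 0.0476), and was not called in 10 of the 16 alternatives.

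The list of other vascular genes had 2 higher and 2 lower calls among 30 (6.67% each), against 13.3% and 10.5% of all tested genes. Nid2, a basement membrane protein, rose from 8.81, 7.71 and 9.68 CPM to 21.2, 20.5 and 19.6 CPM, 2.34-fold (edgeR adjusted p = 0.00383), and was called in each of the 16 alternatives. Its span overlaps that of Rtraf, so reads there may be shared. Ly6c1 held 0.213, 0.601 and 0 CPM in wild-type and 4.72, 1.86 and 2.91 CPM in Mettl3-deficient livers (edgeR adjusted p = 0.0256). The call was lost on leaving out the first library of either genotype. Its value is uncertain, since reads can be split with its near copy Ly6c2, a monocyte gene. Esm1, a marker of sprouting tip cells, held 2.56, 0.566 and 1.92 CPM in wild-type and 0.472, 0.266 and 0.101 CPM in Mettl3-deficient livers (edgeR adjusted p = 0.0379). Clec14a, a vascular lectin, had 14.2 ± 1.58 CPM in wild-type and 9.13 ± 0.988 CPM in Mettl3-deficient livers and fell 1.56-fold (SD, n = 3; edgeR adjusted p = 0.0375). Esm1 and Clec14a lost their calls in 8 of 15 and 9 of 16 alternatives.

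**Figure D3:**
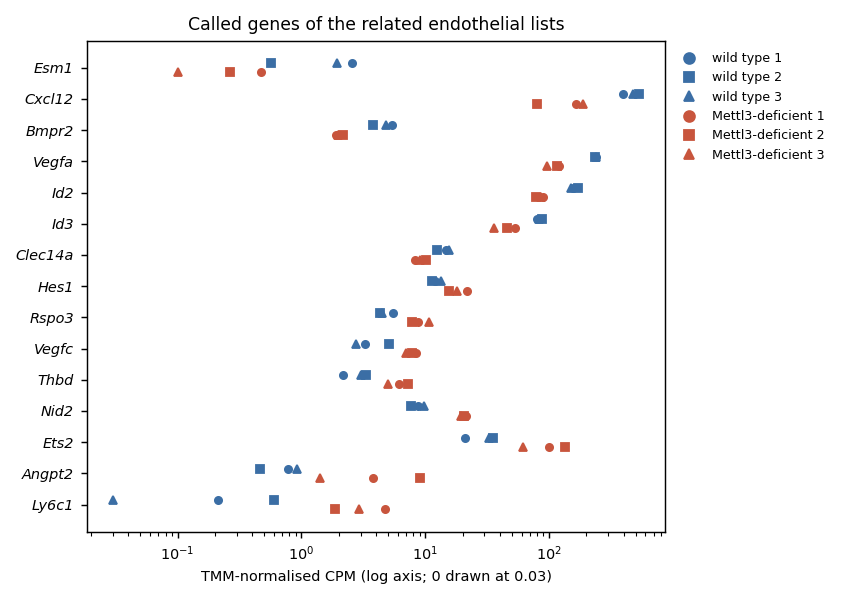
Level in each liver (TMM-normalised CPM, log axis, 1 library per point) of the 15 called genes of the related endothelial lists, ordered by log2 fold change. Vegfa, Cxcl12, Ets2 and Nid2 show groups that are well apart, while a library at 0 (Ly6c1, wild type replicate 3) is drawn at the left edge and the Mettl3-deficient points of Angpt2 spread from 1.42 to 9.10 CPM.

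Markers of other cells were read beside the members. The vascular genes Cdh5 and Vwf were detected in every library, and the lymphatic gene Ccl21a had 0 counts in all 6. These values do not show which cells gave the reads of the members. Of 3 tested genes of the lymphatic list (Prox1, Pdpn and Reln) edgeR called none, with Prox1 lower at an unadjusted edgeR p of 0.0276. Reln is also on the stellate cell list, and which cells gave the reads of Prox1 was not tested. Of 10 monocyte genes 8 rose (80%, against 13.3% of all tested genes). Gpnmb, Cd14 and Itgam had the smallest p (edgeR adjusted p = 0.00131, 0.0109 and 0.00855). The summed level of the 10 genes was 112 to 156 CPM in wild-type and 188 to 299 CPM in Mettl3-deficient livers. None of 12 Kupffer cell genes was called by edgeR, and none had an unadjusted p under 0.05. Of the 12, 11 had log2 fold changes above 0, with a median of 0.59, beside 0.01 over all tested genes. Their summed level was 155 to 553 CPM in wild-type and 469 to 859 CPM in Mettl3-deficient livers, and the groups overlapped. Of 12 stellate cell genes, Rgs5 rose (8.33%, against 13.3% of all tested genes). Among cholangiocyte genes Sox9 rose, 1 of 6 (16.7%, against 13.3%). In the list of 11 lymphocyte genes Ptprc rose and Cd4 fell (9.09% each, against 13.3% and 10.5% of all tested genes). Of these 11 genes 8 had log2 fold changes above 0 and 3 below. Which cells gave the reads of Ptprc was not tested. In smooth muscle genes none of 4 was called by edgeR, also at an unadjusted p, and the red cell gene Hbb-bs, which has near-identical copies and is uncertain, fell. The part of these cells in the values of members shared with them (Stab1, Lyve1, Fcgr2b, Maf, Fli1) was not tested.

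**Figure D4:**
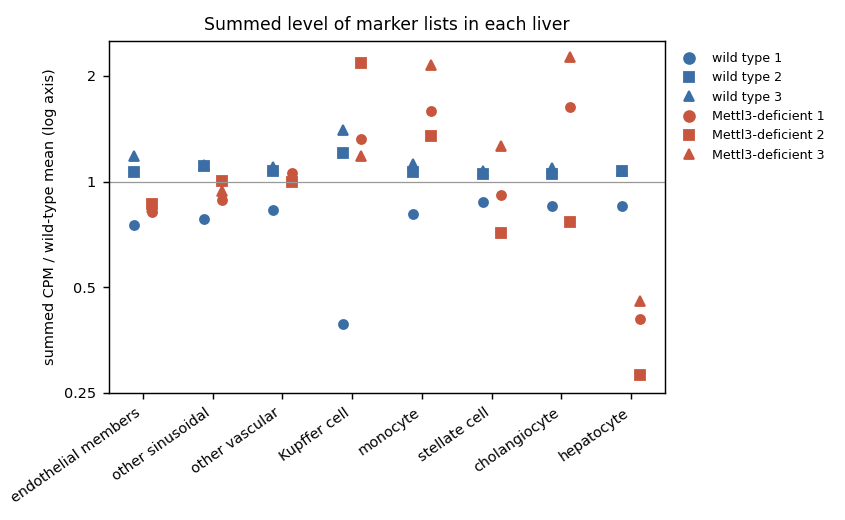
Summed CPM of each marker list in each liver, divided by the mean of the 3 wild-type livers (log axis, 1 library per point). The 3 endothelial lists shown (members, other sinusoidal, other vascular) lie within the wild-type range in the Mettl3-deficient livers, the hepatocyte list lies below it, the monocyte list lies above it, and wild type replicate 1 is lowest for the Kupffer cell list.

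Within the libraries that had Y-linked counts (1 wild type, 2 Mettl3-deficient) the log2 ratios of means were -0.75 for Lyve1, -0.47 for Ptprb, -0.61 for Robo4 and -0.68 for Erg. Within those that had none (2 wild type, 1 Mettl3-deficient) they were -1.71, -0.84, -0.85 and -1.48. For these 4 genes every Mettl3-deficient library lay below every wild-type library, so any split of the libraries had to show them lower. The signs within the sets therefore add no information, and each set held too few libraries for a test.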

How the data were processed

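Total RNA of 6 livers was depleted of ribosomal RNA and made into directional libraries, per the labels' protocols. The authors used HISAT2, featureCounts and mouse build mm10, per the submitters' processing notes. The sources used here do not give versions, annotation or strand setting. What the authors deposited are counts for each gene, not normalized. Symbols and coordinates came from RefSeq on GRCm38.p6, the same build (25275 of 27179 identifiers matched), and exon lengths from GENCODE M21.

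The main test was the robust quasi-likelihood F test of edgeR 4.0.16 in R 4.3.3, with TMM factors and genotype alone in the model. These factors were 0.881, 0.825 and 0.840 in the wild-type libraries and 1.17, 1.25 and 1.12 in the Mettl3-deficient libraries. Scaling by library size alone leaves out this difference between the genotypes. Low counts were removed by filterByExpr (count minimum 10, total minimum 15). A standard error is the log2 fold change divided by the root of F. The scripts were tested on simulated data. The members, lists and tests were chosen with earlier results of these data known. All members are named, with every called gene of each related list (had more than 4 been called, the 4 with the smallest p) and up to 3 genes of each cell type list by p. Alternatives included DESeq2 1.42.0 and limma-voom (limma 3.58.1). No 2 libraries of a group agreed within sampling noise (chi-square per degree of freedom of 16.2 or more). One red cell gene is not reported here.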

Additional observations from a re-analysis of the deposited data

How the results depend on the processing

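Over the 16 alternatives, 11 of the 35 members kept their sign throughout, and so did each of the 15 called genes of the related lists. With library size alone, which moved the median of all tested genes to 0.49, members called were 3 higher and 0 lower, the members' median was 0.29, and 26 related genes were higher and 2 lower. There 17 members turned positive: Stab1 (0.30), Stab2 (0.04), Clec4g (0.07), Gpr182 (0.20), Flt1 (0.44), Tek (0.20), Tie1 (0.29), Eng (0.15), Cd34 (0.42), Esam (0.27), Emcn (0.24), Plvap (0.30), Ramp2 (0.25), Eltd1 (0.13), Nos3 (0.24), Sox18 (0.33) and Maf (0.47). With the Y-linked covariate Stab1 was at 0.14, Tie1 at 0.06, Cd34 at 0.02, Plvap at 0.13, Gata4 at -0.02 and Maf at 0.06. Upper-quartile factors gave 0.01 for Cd34 and 0.03 for Maf, limma-voom gave 0.01 for Maf, and no filter on low counts and the replicate block gave 0.00 for Maf. DESeq2 called 12 related genes lower.

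With the replicate block 2 members were lower (Lyve1 and Ptprb) and 5 related genes higher. The calls of Robo4 (edgeR adjusted p = 0.0698), Erg (0.0864), Angpt2 (0.0699), Hes1 (0.0734), Ly6c1 (0.0516), Esm1 (0.0530) and Clec14a (0.0819) were lost there. Same-numbered libraries did not deviate together (correlations 0.084, -0.017 and 0.034), and not every library correlated best with its own number. With 3 libraries per genotype, these values cannot show whether same-numbered libraries share more than a number.

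Leaving out 1 library gave 0 to 7 lower members, 2 to 8 higher and 4 to 8 lower related genes. Shares of all tested genes were counted only without wild type replicate 1 (10.7% lower, 13.1% higher). Over these fits log2 fold changes ran from -0.49 to 0.07 for Stab1, -0.07 to 0.17 for Fcgr2b, -0.05 to 0.33 for Dnase1l3, -0.14 to 0.36 for Kdr, -0.21 to 0.06 for Flt1, -0.05 to 0.47 for Flt4, -0.08 to 0.21 for Pecam1, -0.61 to 0.19 for Cd34, -0.74 to 0.02 for Emcn, -0.48 to 0.04 for Plvap, -0.14 to 0.16 for Mmrn2, -0.30 to 0.03 for Sox18, -0.14 to 0.13 for Gata4 and -0.15 to 0.07 for Maf. The cause of these changes was not tested. The largest standard errors among members were those of Cd34 (0.42), Emcn (0.41) and Fli1 (0.36). These genes had fewer than 200 counts in every library. So did Icam2, Nos3, Sox17, Sox18 and Erg, with standard errors of 0.26 to 0.28.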
